A study of Mus musculus with 39 samples.

Results

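The genes described here are 35 nuclear genes of central carbon and amino acid oxidation, nearly all with mitochondrial products: 14 of the tricarboxylic acid (TCA) cycle, 4 of the pyruvate dehydrogenase complex and 17 of the breakdown of the branched-chain amino acids leucine, isoleucine and valine. They were chosen by name, for their place in these pathways, with earlier results of these data known. They were matched by symbol to the deposited count table, and all 35 were found among its 38293 genes. All 35 passed the filter on low counts in every comparison.

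RNA was sequenced from the left ventricle of C57BL6/J mice, in 39 libraries and 11 labelled groups. The first set carries R14del, a loss of arginine 14 from phospholamban, the Pln product, which holds back calcium uptake into the sarcoplasmic reticulum. Wild type hearts (n = 4, 4 and 3 at 3, 5 and 8 weeks of age) were set against homozygous Pln R14del/R14del hearts (n = 4 at each age), and at 8 weeks also against heterozygous Pln wt/R14del hearts (n = 4). The second set holds wild type hearts after surgery on the left anterior descending coronary artery in male mice aged 12 weeks: ischemia-reperfusion (I/R, temporary ligation, 3 days, n = 4), myocardial infarction (MI, permanent ligation, 8 weeks, n = 4) and sham surgery labelled 12 weeks (n = 2) or 20 weeks (n = 2), pooled as 4 shams. The I/R hearts are labelled 12 weeks and the MI hearts 20 weeks, and the surgical protocol describes tissue remote from the infarct. Each library has its own numbered name in the labels, but no label says that these numbers stand for animals. Each p-value therefore reflects only how far these libraries differ from each other, which may be technical.

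Pyruvate dehydrogenase turns pyruvate into acetyl-CoA, the TCA cycle oxidizes acetyl-CoA and feeds the respiratory chain, and the heart depends on both for its ATP. Branched-chain amino acids are first transaminated by Bcat2. The branched-chain ketoacid dehydrogenase, built from Bckdha, Bckdhb, Dbt and the shared subunit Dld, then commits the ketoacids to oxidation. The kinase Bckdk switches that complex off and the phosphatase Ppm1k switches it on, and the 3 arms downstream end in acetyl-CoA and succinyl-CoA, which enter the TCA cycle.

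Because the members move together in several comparisons, the windows around their start sites were read from RefSeq (GRCm38.p6), 250 bases before to 50 after each start. Windows were found for 33 of the 35, and Idh3a and Dbt were not matched. Each window was searched on both strands for TNAAGGTCA, the extended element bound by estrogen-related receptors, for its core AAGGTCA, which lies inside it, and for the palindromic core motif of nuclear respiratory factor 1. The GC box (GGGCGG) and the CCAAT box (its letters are its name), both common in promoters, were searched too. These boxes and the short core were added after results were seen. The 4 windows below are shown because Ogdh has the one AAGGTCA match among the members, Ppm1k and Bckdhb were among those that fell most in the homozygous hearts, and Bcat2 was the member that did not fall at 5 weeks. The windows lie at chr11:6291920-6292219 (Ogdh, plus strand, around a start inside the gene), chr6:57535438-57535737 (Ppm1k, minus strand), chr9:83924887-83925186 (Bckdhb, plus strand) and chr7:45569903-45570202 (Bcat2, plus strand). Capitals mark matches of these motifs on either strand, and the Bcat2 window has none.
Ogdh: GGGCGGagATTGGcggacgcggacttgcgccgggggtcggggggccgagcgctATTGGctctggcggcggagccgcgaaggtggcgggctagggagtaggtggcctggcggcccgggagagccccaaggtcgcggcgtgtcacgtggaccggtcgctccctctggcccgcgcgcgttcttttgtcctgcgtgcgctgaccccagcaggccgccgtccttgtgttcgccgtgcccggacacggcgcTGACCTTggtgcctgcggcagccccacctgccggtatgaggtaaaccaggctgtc
Ppm1k: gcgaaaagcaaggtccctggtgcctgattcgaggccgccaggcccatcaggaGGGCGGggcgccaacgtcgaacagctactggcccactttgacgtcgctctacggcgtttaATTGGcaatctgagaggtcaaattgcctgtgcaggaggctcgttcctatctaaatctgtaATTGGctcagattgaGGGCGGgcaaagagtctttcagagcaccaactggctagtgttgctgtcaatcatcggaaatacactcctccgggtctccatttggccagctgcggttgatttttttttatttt
Bckdhb: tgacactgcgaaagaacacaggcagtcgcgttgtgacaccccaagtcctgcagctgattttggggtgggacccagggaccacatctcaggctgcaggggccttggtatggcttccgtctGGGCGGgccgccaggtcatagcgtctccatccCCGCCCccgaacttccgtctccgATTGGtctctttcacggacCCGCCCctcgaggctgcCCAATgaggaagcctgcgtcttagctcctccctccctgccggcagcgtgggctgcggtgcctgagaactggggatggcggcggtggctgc
Bcat2: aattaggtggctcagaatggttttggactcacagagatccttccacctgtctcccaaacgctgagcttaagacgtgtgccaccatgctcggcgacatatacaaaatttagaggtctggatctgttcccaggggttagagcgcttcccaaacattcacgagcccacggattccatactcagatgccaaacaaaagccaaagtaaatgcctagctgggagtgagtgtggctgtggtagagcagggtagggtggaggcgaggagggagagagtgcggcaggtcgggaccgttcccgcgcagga

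Neither TNAAGGTCA nor the nuclear respiratory factor 1 motif was found in any of the 33 member genes, against 1.43% and 1.07% of 27025 genes in the same table. AAGGTCA stood in 1 of 33 (3.03%, against 5.38% of all genes). It lay on the minus strand in Ogdh, beginning 5 bases before a start inside the gene and running across it. Ogdh has several windows, and the others, among them those nearest the start of the gene, did not hold it. GGGCGG stood in 21 of 33 (63.6%, against 38.2%) and CCAAT in 20 of 33 (60.6%, against 41.1%). In 37 other genes of these pathways, taken up below, the shares were higher still, at 70.3% and 64.9%. A gene was counted if any of its windows held the motif. The members' windows were also richer in G and C, with a median of 59.3% against 52.8% over all genes, and the part of base composition in these shares was not tested.

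Libraries held 9.4 M to 19.3 M counts. Values below are CPM, counts scaled to 1 M per library with TMM factors over all 39 libraries, and fold changes are log2 values with standard errors. Mitochondrially encoded genes took a mean of 20.4% of counts in wild type and 15.0% in homozygous hearts at 5 weeks, and 24.4% in shams, 19.6% after I/R and 21.0% after MI. At 8 weeks they took 15.2% to 16.5% in wild type hearts, 15.5% in homozygous replicate 1 and 8.27% to 10.6% in the other 3 homozygous hearts. The summed CPM of 8 cardiomyocyte markers ran from 62840 to 66590 in wild type and from 41350 to 49180 in homozygous hearts at 5 weeks, from 74240 to 81720 and from 28460 to 54360 at 8 weeks, and from 48040 to 68180 in shams, 35450 to 43110 after I/R and 48730 to 60410 after MI. None of these markers was at 0. Fibroblast markers summed to a mean of 1349 CPM in wild type and 3542 in homozygous hearts at 5 weeks, and to 1163 and 5389 at 8 weeks. Macrophage markers summed to 319.8 and 1097 CPM at 5 weeks and to 321.7 and 1351 at 8 weeks. In bulk tissue, fewer cells of a type and less RNA per cell cannot be told apart.

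In wild type hearts at 8 weeks the members together took 2.07% of all counts. Per kilobase of exon, malate dehydrogenase Mdh1 stood highest at 846.4 ± 62.91 CPM per kb (SD, n = 3), followed by isocitrate dehydrogenase Idh2 at 753.4, the 2-oxoglutarate dehydrogenase subunit Ogdh at 668.0, Mdh2 at 412.9 and citrate synthase Cs at 327.3. Pdha1 led the pyruvate dehydrogenase genes at 320.5 CPM per kb. Of the branched-chain genes Bckdha stood highest at 189.1, Ivd followed at 92.84 and Bcat2 at 49.85, and the lowest levels per length were those of Ppm1k at 11.84 and Auh at 8.879. The TCA and pyruvate dehydrogenase genes held most of the set's counts. They summed to 18630 ± 993 CPM, and the 17 branched-chain genes to 2684 ± 58.4 CPM (SD, n = 3).

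**Figure D1:**
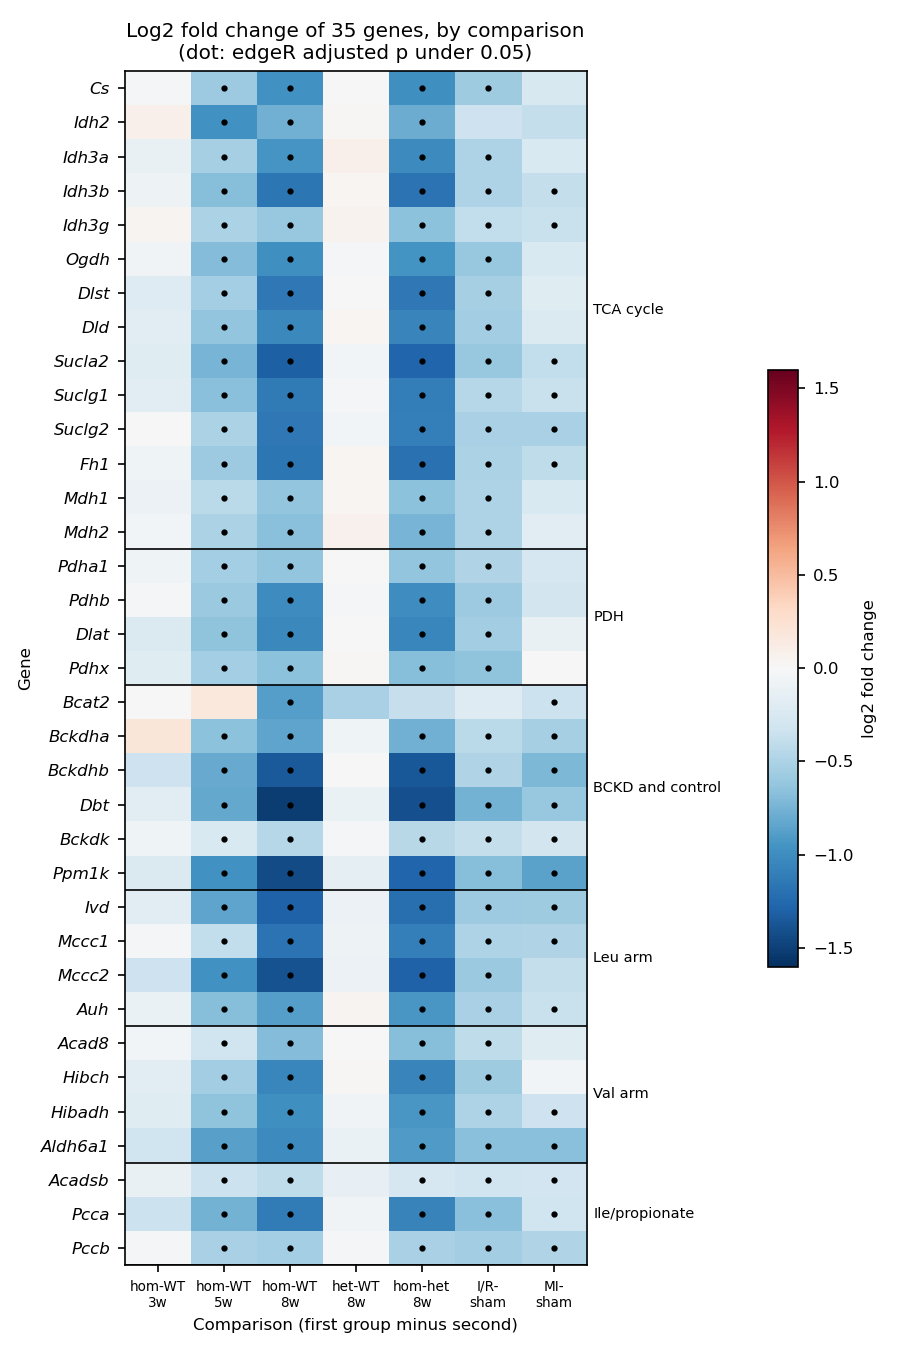
Log2 fold changes of the 35 genes (rows, by role) in 7 comparisons (columns), where blue is lower and red higher in the first group and a dot marks an adjusted p under 0.05 in edgeR. The columns of homozygous hearts at 5 and 8 weeks carry 34 and 35 dots, the I/R column 33, the MI column 20, and the columns of 3 weeks and of heterozygous hearts none.

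In the wild type heart 5 of the 17 branched-chain genes and 2 of the 14 TCA genes were higher at 8 than at 3 weeks of age. These 7 of the 35 members were higher at 8 weeks by edgeR's quasi-likelihood test with adjustment over all genes, and none was lower, where 4.73% of all 14931 genes tested were called higher and 3.67% lower. The 7 were Bckdha (+0.89, adjusted p = 1.46e-05), Bcat2 (+0.76), the leucine enzyme Ivd (+0.68), Acadsb of the isoleucine arm (+0.65), Aldh6a1 of the valine arm (+0.48), and from the TCA cycle Suclg2 (+0.68) and Idh2 (+0.49). All 17 branched-chain genes had positive values, 12 of them with an unadjusted p under 0.05, while 14 of the 18 TCA and pyruvate dehydrogenase genes had negative values. The share of all genes under that unadjusted threshold was not taken. Bcat2 (ENSMUSG00000030826, chr7:45570153-45589711, plus strand) stood at 154, 103, 115 and 85.8 CPM at 3 weeks and at 192, 190.3 and 201 at 8 weeks. The 8-week libraries lie above every 3-week library, as for 12.6% of all genes. When 1 library was left out, 5 or 6 members were called higher at 8 weeks. The labels do not give library batches, so age and batch cannot be told apart here.

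At 3 weeks no member was called in homozygous hearts. The edgeR test called 0 of 35 lower and 0 higher, as it called 0% of the 13427 genes tested. In edgeR 9 members had an unadjusted p under 0.05, and the share of all genes under that threshold was not taken. DESeq2 called 1 member lower, and 112 of 21752 genes in either direction. Values leaned downward, with 31 of 35 negative and a median of -0.10 against 0.00014 over all genes. The smallest adjusted p was that of Pcca, a subunit of propionyl-CoA carboxylase (-0.34 ± 0.08, adjusted p = 0.241 in edgeR and 0.0332 in DESeq2). The groups did not overlap for 4 members, Pdhx, Bckdhb, Hibadh and Pcca, where 2.48% of all genes were lower without overlap.

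At 5 weeks 34 of the 35 genes were lower in homozygous hearts and none was higher by edgeR, where 21.4% of the 13323 genes tested were called lower and 22.3% higher. The median member lay 33.7% below wild type (median log2 value -0.59, against -0.00118 over all genes). In 33 of the 34 the groups did not overlap, as in 19.5% of all genes. All 14 TCA genes and all 4 pyruvate dehydrogenase genes fell, as did 16 of the 17 branched-chain genes, with Bcat2 the exception.

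By 8 weeks all 35 were lower in homozygous hearts by edgeR, where 29% of the 14314 genes tested were called lower and 30.8% higher, and none of the 35 overlapped between the groups (27.2% of all genes were lower without overlap). All 35 calls also stood when any 1 library was left out. The median member lay 50.2% below wild type (-1.01, against 0.02 over all genes). The leucine arm had the lowest median of the pathway groups (-1.24), then the dehydrogenase branch (-1.12), the TCA cycle (-1.004), the valine arm (-0.9966), pyruvate dehydrogenase (-0.83) and the isoleucine and propionate genes (-0.54). With scaling to library size alone, which moves the median of all genes to 0.21 at 5 weeks and 0.19 at 8 weeks, 31 and 34 members were still lower, the members' medians were -0.39 and -0.86, and Bcat2 was higher at 5 weeks.

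Citrate synthase Cs (ENSMUSG00000005683, chr10:128337734-128362479, plus strand), which opens the cycle, was at 1734, 1615, 1579 and 1647 CPM in the 4 wild type hearts at 5 weeks and at 1047, 1032, 1228 and 1098 in the homozygous hearts. At 8 weeks it stood at 1929.8, 1940.4 and 1803 in wild type and at 1144, 841, 1018 and 929.6 in homozygous hearts. The groups were apart at both ages, and the fall was 0.58 ± 0.07 at 5 weeks (edgeR adjusted p = 2.65e-06) and 0.97 ± 0.13 at 8 weeks (adjusted p = 3.18e-05). The I/R hearts held 1009.6, 1170.1, 1158 and 1127 CPM and the MI hearts 1331, 1214, 1446 and 1546, against 1644, 1845, 1739.6 and 1412 in the shams.

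Idh2 (ENSMUSG00000030541, chr7:80094846-80115392, minus strand), the NADP-dependent isocitrate dehydrogenase of mitochondria, stood at 1522, 1612, 1689 and 1550.3 CPM in wild type and at 847, 741, 925 and 741 in homozygous hearts at 5 weeks. At 8 weeks wild type hearts held 2092, 1962 and 1796 and homozygous hearts 1428, 1265, 1142 and 808. It had the deepest fall of the 35 at 5 weeks (0.97 ± 0.08, edgeR adjusted p = 1.36e-08) and was lower by 0.77 ± 0.16 at 8 weeks (adjusted p = 0.00129). For the 3 subunits of the NAD-dependent enzyme the values at 5 and 8 weeks were -0.53 and -0.94 for Idh3a, -0.68 and -1.15 for Idh3b, and -0.50 and -0.61 for Idh3g. Idh3b overlaps Nop56 on the opposite strand, which held 14827 counts over all libraries against 394920 for Idh3b. No source used here gives the strand setting of the counting, so reads of such overlapping pairs may be shared.

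Ogdh (ENSMUSG00000020456, chr11:6291633-6356642, plus strand), the first subunit of 2-oxoglutarate dehydrogenase, whose window above holds the AAGGTCA match, was at 2692, 2587, 2468 and 2608 CPM in wild type and 1419, 1549, 1806 and 1626 in homozygous hearts at 5 weeks. At 8 weeks wild type hearts held 3785, 3764 and 3385 and homozygous hearts 2433, 1549.8, 1894 and 1636. It fell by 0.69 ± 0.08 (edgeR adjusted p = 6.9e-07) and 0.98 ± 0.16 (adjusted p = 0.000152). Its partner Dlst, the succinyltransferase, was at 802, 847 and 776 CPM in wild type and 501, 300.1, 331 and 356 in homozygous hearts at 8 weeks. Dlst and Dld, the dehydrogenase shared with the other complexes, fell by 1.15 ± 0.15 and 1.03 ± 0.15 at 8 weeks.

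Succinyl-CoA synthetase makes nucleotide triphosphate from succinyl-CoA, with Sucla2 setting the ATP form, Suclg2 the GTP form and Suclg1 shared by both. Sucla2 (ENSMUSG00000022110, chr14:73525319-73596142, plus strand) stood at 664, 719.8 and 699 CPM in wild type and at 389, 252, 270.1 and 228 in homozygous hearts at 8 weeks, the deepest fall of the TCA genes (1.31 ± 0.16, edgeR adjusted p = 2.18e-05). Suclg2 (ENSMUSG00000061838, chr6:95473009-95718800, minus strand) stood at 139, 137 and 131 CPM in wild type and 81.9, 57.4, 56.7 and 54.5 in homozygous hearts and fell by 1.14 ± 0.13 (adjusted p = 1.11e-05). Homozygous replicate 1 held the highest value for both genes, as it did for 33 of the 35 members at 8 weeks. Fh1, fumarase, was at 521, 521 and 472 in wild type and 293, 195, 213 and 219 in homozygous hearts and fell by 1.16 ± 0.13 (adjusted p = 9.72e-06). Of the malate dehydrogenases, the cytosolic Mdh1 fell by 0.63 ± 0.13 and the mitochondrial Mdh2 by 0.67 ± 0.12.

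Pdha1 (ENSMUSG00000031299, chrX:160122209-160138413, minus strand), the catalytic alpha subunit of pyruvate dehydrogenase and the site of its phosphorylation, was at 1299.8, 1206, 1194 and 1208 CPM in wild type and 789, 812, 924 and 845 in homozygous hearts at 5 weeks, and at 1232, 1243 and 1116 against 976, 719.7, 763 and 678 at 8 weeks. The groups were apart at both ages, with falls of 0.54 ± 0.07 (edgeR adjusted p = 3.45e-06) and 0.63 ± 0.13 (adjusted p = 0.00103). At 8 weeks the beta subunit Pdhb fell by 1.01 ± 0.15, the acetyltransferase Dlat by 1.04 ± 0.16 and Pdhx, which anchors Dld in the complex, by 0.66 ± 0.13.

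**Figure D2:**
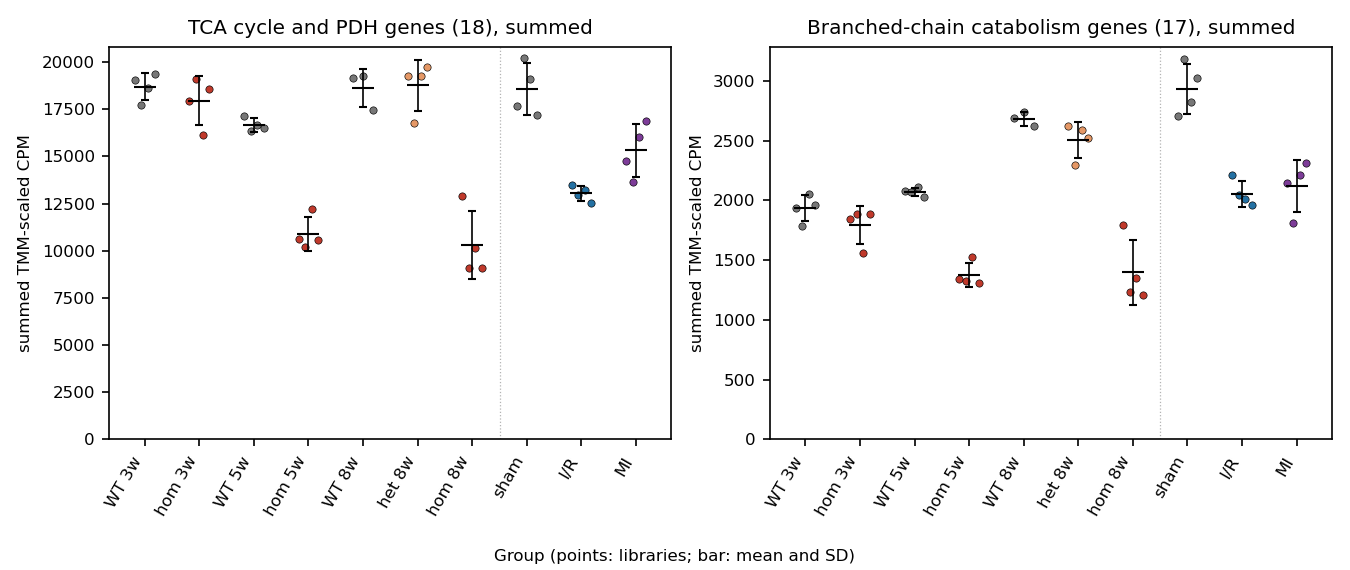
Summed CPM of the 18 TCA and pyruvate dehydrogenase genes (left) and of the 17 branched-chain genes (right) by group, where points are libraries and bars the mean and SD. The homozygous hearts at 8 weeks have means of 10290 and 1397 CPM, below every wild type library at that age (lowest 17490 and 2623).

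Bcat2, the mitochondrial transaminase, departed from the rest at 5 weeks, when wild type hearts held 125, 102, 149 and 104 CPM and homozygous hearts 138, 119, 171 and 112. The groups overlapped and no difference was called (0.17 ± 0.12, edgeR adjusted p = 0.283), but with scaling to library size Bcat2 was called higher (0.37, adjusted p = 0.0122). At 8 weeks wild type hearts held 192, 190.3 and 201, homozygous hearts 104, 68.1, 133 and 124 and heterozygous hearts 125, 177, 119 and 122. Homozygous hearts were then lower than wild type without overlap (-0.88 ± 0.20, adjusted p = 0.00182), and were not called different from heterozygous hearts (-0.37 ± 0.18, adjusted p = 0.0973). Every wild type library at 8 weeks also lay above every wild type library at 3 and 5 weeks, and the change from 5 to 8 weeks in the genotype difference was called (-1.03 ± 0.25, adjusted p = 0.00223).

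The dehydrogenase subunits fell at both ages. Bckdha (ENSMUSG00000060376, chr7:25629946-25658981, minus strand), the alpha subunit and the target of the kinase, was at 204, 218, 239 and 218 CPM in wild type and 148, 132, 145 and 131 in homozygous hearts at 5 weeks, and at 367, 367 and 343 against 263, 197, 188 and 168 at 8 weeks. It fell by 0.66 ± 0.07 (edgeR adjusted p = 3.21e-07) and 0.84 ± 0.13 (adjusted p = 9.34e-05). B3gnt8 overlaps it on the opposite strand, with 2003 counts against 142735.

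Bckdhb (ENSMUSG00000032263, chr9:83925145-84124240, plus strand), the beta subunit, was at 47.3, 45.4, 51.9 and 41.03 CPM in wild type and 26.6, 25.8, 28.7 and 24.6 in homozygous hearts at 5 weeks, and at 50.9, 53.01 and 49.6 against 23.6, 20.2, 21.9 and 16.2 at 8 weeks. The falls were 0.81 ± 0.09 (edgeR adjusted p = 3.94e-07) and 1.35 ± 0.14 (adjusted p = 5.53e-06). Dbt, the acyltransferase core, had the deepest fall of all 35 at 8 weeks: 75.8, 71.9 and 66.3 CPM in wild type against 37.1, 23.6, 25.4 and 15.5 in homozygous hearts, a fall of 1.52 ± 0.21 (adjusted p = 5.12e-05). The highest homozygous library, at 37.1 CPM, lay below the lowest wild type library, at 66.3.

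The 2 regulators of the complex both fell at both ages. Bckdk (ENSMUSG00000030802, chr7:127904082-127910221, plus strand), the inactivating kinase, was at 83.9, 101, 90.97 and 81.04 CPM in wild type and 77.3, 79.6, 75.9 and 67.9 in homozygous hearts at 5 weeks, and at 123, 116 and 109.8 against 80.97, 82.5, 82.9 and 98.5 at 8 weeks, falls of 0.25 ± 0.08 (edgeR adjusted p = 0.0135) and 0.45 ± 0.10 (adjusted p = 0.00169). Ppm1k (ENSMUSG00000037826, chr6:57506502-57535468, minus strand), the activating phosphatase, was at 69.9, 71.1, 71.1 and 66.6 in wild type against 32.2, 38.001, 40.99 and 31.8 in homozygous hearts at 5 weeks and at 73.4, 71.2 and 69.4 against 36.8, 24.6, 29.4 and 16.99 at 8 weeks, falls of 0.96 ± 0.08 (adjusted p = 2.13e-08) and 1.43 ± 0.19 (adjusted p = 3.57e-05). The kinase thus had the smallest called fall of the 35 at 5 weeks and the phosphatase one of the 3 largest, and the difference between the 2 genes was not tested. The call of Bckdk at 5 weeks was lost with scaling to library size (-0.25 became -0.04).

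**Figure D3:**
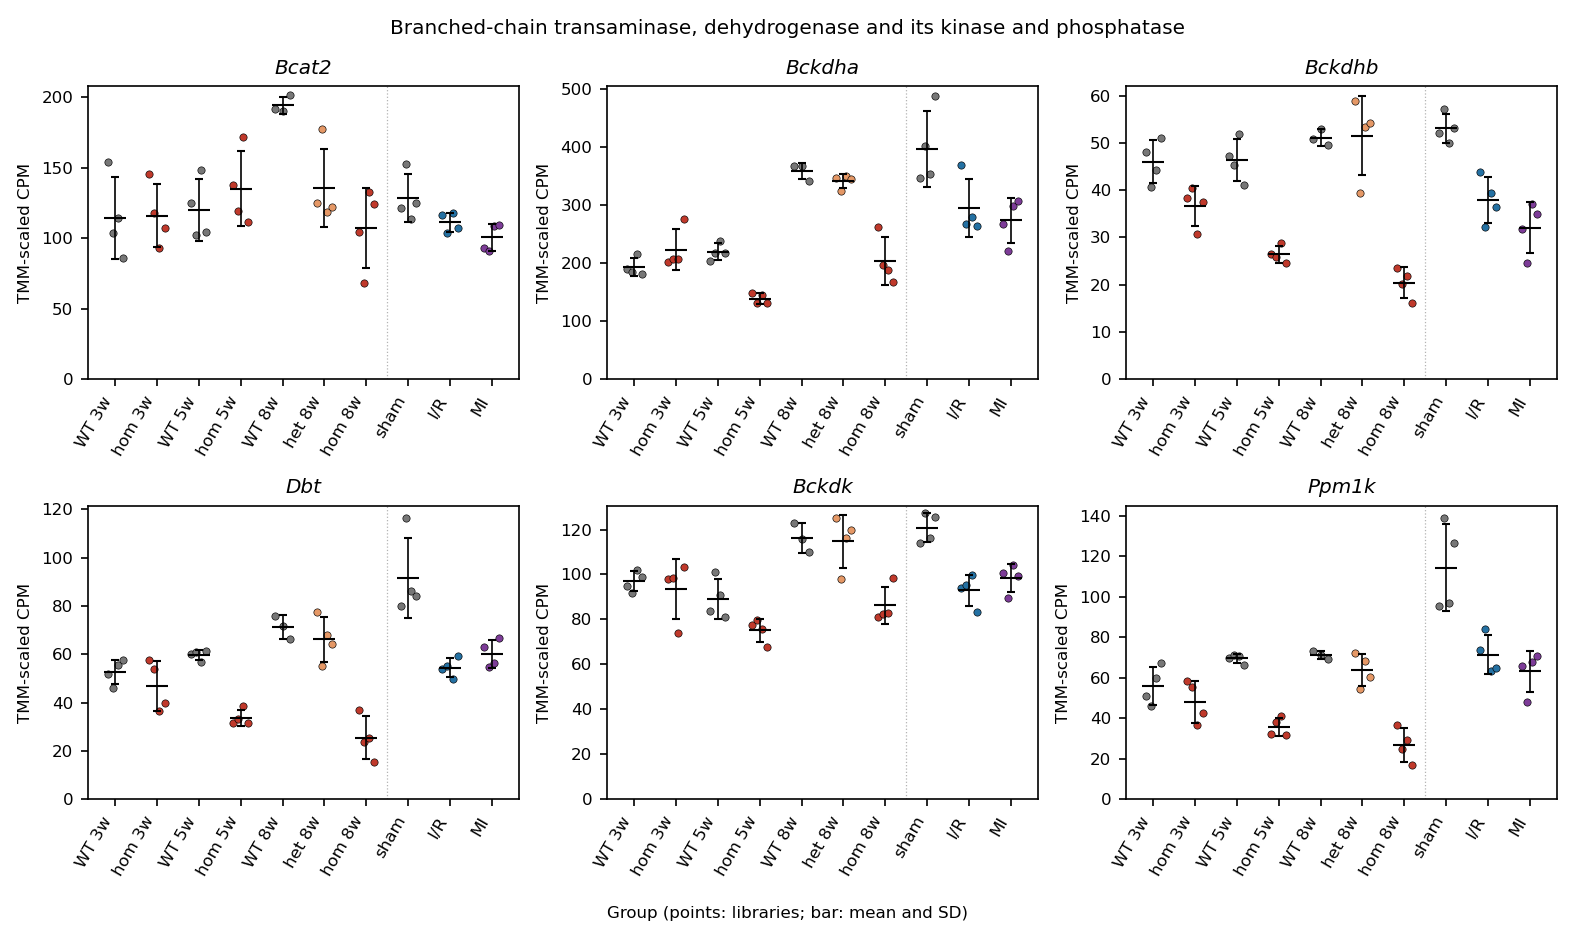
CPM per library of Bcat2, Bckdha, Bckdhb, Dbt, Bckdk and Ppm1k in each group, with the group mean and SD. Ppm1k and Dbt in homozygous hearts at 8 weeks lie between 15.5 and 37.1 CPM, while Bcat2 at 5 weeks overlaps between wild type and homozygous hearts.

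In the leucine arm, Ivd, the isovaleryl-CoA dehydrogenase, fell by 0.85 ± 0.07 and 1.30 ± 0.21 at 5 and 8 weeks. Mccc1 and Mccc2 form methylcrotonyl-CoA carboxylase. Mccc2 was at 65.7, 56.8, 55.9 and 57.8 CPM in wild type and 30.98, 28.2, 35.4 and 26.4 in homozygous hearts at 5 weeks, and at 76.7, 73.3 and 67.2 against 42.6, 22.5, 26.2 and 21.2 at 8 weeks, falls of 0.97 ± 0.09 (edgeR adjusted p = 6.99e-08) and 1.39 ± 0.20 (adjusted p = 6.51e-05). Its partner Mccc1 went from 117, 114, 109 and 112 to 79.3, 85.2, 91.8 and 86.1 CPM at 5 weeks and from 137, 148 and 133 to 84.8, 48.4, 58.04 and 59.2 at 8 weeks, -0.40 ± 0.06 and then -1.18 ± 0.15, and had the smallest p of the members for a deepening between these ages (-0.76 ± 0.15, adjusted p = 0.000279). Auh, the methylglutaconyl-CoA hydratase, was at 72.7, 70.2, 68.9 and 69.4 CPM in wild type and 45.4, 44.2, 43.7 and 41.9 in homozygous hearts at 5 weeks, and fell by 0.68 ± 0.06 and 0.89 ± 0.12 at the 2 ages.

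In the valine arm, Aldh6a1 (ENSMUSG00000021238, chr12:84430717-84451004, minus strand), the methylmalonate semialdehyde dehydrogenase that closes it, was at 192, 193, 177 and 188 CPM in wild type and 89.7, 96.9, 121 and 102 in homozygous hearts at 5 weeks. At 8 weeks wild type hearts held 226, 246 and 229 and homozygous hearts 149, 119, 129 and 76.4, again without overlap. The falls were 0.87 ± 0.08 (edgeR adjusted p = 5.68e-08) and 1.01 ± 0.18 (adjusted p = 0.000333). Acad8, isobutyryl-CoA dehydrogenase, was called at 5 weeks with overlapping groups (-0.32 ± 0.10, adjusted p = 0.017) and fell by 0.69 ± 0.10 at 8 weeks. Hibch, the hydroxyisobutyryl-CoA hydrolase, and Hibadh, the hydroxyisobutyrate dehydrogenase, fell by 1.04 ± 0.16 and 0.98 ± 0.13 at 8 weeks.

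In the isoleucine and propionate group, Pcca (ENSMUSG00000041650, chr14:122534324-122891100, plus strand), the biotin subunit of propionyl-CoA carboxylase, was at 76.4, 73.1, 75.6 and 80.7 CPM in wild type and 45.7, 44.6, 47.9 and 43.1 in homozygous hearts at 5 weeks. At 8 weeks it was at 97.3, 106 and 94.9 in wild type against 67.3, 39.7, 40.0 and 39.2, with replicate 1 again the highest homozygous library. The falls were 0.75 ± 0.07 (edgeR adjusted p = 3.32e-08) and 1.12 ± 0.17 (adjusted p = 8.8e-05), against 0.51 ± 0.07 and 0.54 ± 0.09 for the other subunit Pccb. Ggact overlaps Pcca on the opposite strand, with 7769 counts against 40317. Acadsb, the short branched-chain acyl-CoA dehydrogenase, had the smallest fall of the 35 at 8 weeks (0.40 ± 0.11, adjusted p = 0.00581).

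The genotype difference was tested between ages in 1 fit of all 39 libraries. The 5-week libraries are named in another style in the labels. They held 9.78 M to 11.98 M counts, against 13.07 M to 18.95 M in wild type and homozygous libraries of 3 and 8 weeks. Mitochondrially encoded genes took a mean of 20.4% of wild type counts at 5 weeks, 14.7% at 3 and 15.7% at 8. The labels do not give library batches, so age and batch cannot be told apart in these differences. Between 3 and 5 weeks the genotype difference became more negative for 23 of 35 members by edgeR, where 9.29% of 14931 genes did so. That count was 18 without wild type or homozygous replicate 2 at 3 weeks and 30 without homozygous replicate 3 at 3 weeks. Over all genes, in either direction, these fits called 2468, 2708 and 3395. With all libraries the smallest p-values were those of Idh2 (-1.06 ± 0.20, adjusted p = 0.000264), Bckdha (-0.86 ± 0.17, adjusted p = 0.000478), Ogdh (-0.64 ± 0.14) and Auh (-0.59 ± 0.13). Between 5 and 8 weeks the genotype difference became more negative for 12 members, where 13.8% of genes did so, led by Mccc1, Suclg2 (-0.60 ± 0.14), Bcat2 and Fh1 (-0.55 ± 0.14). That count fell to 6 without homozygous replicate 4 at 8 weeks and to 7 without homozygous replicate 3 at 5 weeks or wild type replicate 2 at 8 weeks, and rose to 24 without homozygous replicate 1 at 8 weeks and to 22 with scaling to library size. Over all genes, in either direction, these fits called 4677, 3796, 3601, 4655 and 4184, in that order.

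Cardiomyocyte markers moved with these falls: 7 of 8 were lower at 5 weeks and 5 of 8 at 8 weeks in homozygous hearts, while 7 of 7 fibroblast and 7 of 7 macrophage markers were higher at both ages. Endothelial markers were lower too, 6 of 6 at 5 weeks (median log2 value -0.75, beside -0.73 for cardiomyocyte markers) and 4 of 6 at 8 weeks, when 1 was higher. Of the mural cell markers 6 of 6 were lower at 5 weeks (median -0.52), and 2 were lower and 1 higher at 8 weeks. Per 100 CPM of summed cardiomyocyte markers, the members summed to 28.7 ± 0.496 in wild type and 27.6 ± 0.861 in homozygous hearts at 5 weeks (SD, n = 4 each). At 8 weeks the same ratio was 27.1 ± 0.398 (n = 3) and 30.7 ± 3.99 (n = 4), with homozygous libraries from 26.99 to 36.17. The largest marker in that sum was Myh6, at 33923 to 37816 CPM in wild type and 8018.7 to 20252 in homozygous hearts. Tnnt2 (6602.2 to 7344.6 against 6036.1 to 7555.5 CPM) and Actn2 (2290.8 to 2712.1 against 2119.9 to 2746.4) overlapped between these groups. The ratio therefore depends on which markers are summed. The part of cell composition in the members' falls was not tested.

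No member was called between heterozygous and wild type hearts at 8 weeks. The edgeR test called 0 of 35 lower and 0 higher, as it called 0% of the 14314 genes tested, DESeq2 called 0, and 1 member had an unadjusted p under 0.05. That member was Bcat2 (-0.51 ± 0.20, unadjusted p = 0.0213, adjusted p = 1), whose heterozygous libraries all lay below the wild type ones, as for 2.89% of all genes. The median member was at -0.01, against 0.01 over all genes. Cs in the 4 heterozygous hearts was at 1919.8, 1636, 2050 and 2004 CPM, Bckdhb at 58.9, 39.5, 53.3 and 54.3 and Ppm1k at 72.5, 54.5, 68.1 and 60.5, and heterozygous replicate 2 held the lowest value for 34 of the 35. The homozygous hearts were lower than the heterozygous for 34 of 35 members, where 30% of genes were called lower, with a median of -0.99 and 32 members apart (25.1% of all genes). This comparison and that with wild type share the homozygous libraries, and the heterozygous and homozygous comparisons with wild type share the same 3 controls.

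At 3 days after I/R, 33 of 35 members were lower in the remote ventricle than in shams and none was higher by edgeR, where 14.1% of the 13611 genes tested were called lower and 16.9% higher, and the median member lay 30.2% below (-0.52, against -0.02 over all genes). The groups did not overlap for 31 members, as for 11.8% of all genes. The 2 not called were Idh2 (-0.33 ± 0.16, adjusted p = 0.137, and 0.0337 without I/R replicate 1) and Bcat2 (-0.20 ± 0.10, adjusted p = 0.136). The smallest p-values were those of Ogdh (-0.61 ± 0.09, adjusted p = 0.000121), Pcca (-0.67 ± 0.10), Dbt (-0.75 ± 0.11) and Hibadh (-0.50 ± 0.08). Ogdh was at 2225, 2318, 2190.1 and 2286 CPM in I/R hearts and at 3297, 3672, 3624 and 3125 in shams. Hibadh was at 208, 210, 216 and 194 against 275, 315, 303 and 278, and for both genes every I/R library lay below every sham. Scaling to library size moved the median of all genes to 0.205 and that of the members to -0.29, and left 26 members called lower. Of the markers, 7 of 8 for cardiomyocytes were lower after I/R, and 5 of 7 for fibroblasts and 7 of 7 for macrophages were higher. The members summed to 35.2 ± 4.75 per 100 CPM of cardiomyocyte markers in shams and to 37.6 ± 3.62 after I/R (SD, n = 4 each). The sham libraries stood at 31.9, 34.3, 32.4 and 42.1, the last being the second 12-week sham, and the I/R libraries at 33.6 to 42.3. The part of cell composition was not tested.

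At 8 weeks after MI, 20 of 35 members were lower than in shams and none was higher by edgeR, where 4.77% of genes were called lower and 6.62% higher, with a median of -0.35 against -2.28e-05 over all genes. The groups did not overlap for 21 members, where 7.81% of all genes were lower without overlap. The calls fell unevenly over the pathways: 14 of 17 branched-chain genes, 6 of 14 TCA genes and 0 of 4 pyruvate dehydrogenase genes, of which 2 had an unadjusted p under 0.05 and Pdha1 had the smallest adjusted p (-0.26 ± 0.09, adjusted p = 0.0793, and 0.0244 in DESeq2 or 0.0434 without MI replicate 4). Whether the pathways differ in this was not tested. The number of calls rests on single libraries, since it was 9 without MI replicate 2 or without the first 20-week sham, 10 without MI replicate 1 and 22 without MI replicate 4. Calls over all genes changed too. With all libraries 649 genes were lower and 901 higher. In either direction, 663 were called without MI replicate 2, 789 without the first 20-week sham, 957 without MI replicate 1 and 1570 without MI replicate 4. After MI 1 of 8 cardiomyocyte markers was lower, 5 of 7 fibroblast markers (median 0.64), 1 of 7 macrophage markers and all 3 adipocyte markers tested were higher, and 0 of 6 endothelial markers were called by edgeR, none with an unadjusted p under 0.05. The adipocyte markers summed to 1.47 to 56.5 CPM after MI and to 0.343 to 2.90 in shams. The atrial markers Sln, Myl7 and Myl4 summed to 9.46 to 685.1 CPM and to 32.96 to 304.7, and 0 of 3 were called. MI replicate 2 had the most Myl7 of the MI hearts (216.1 CPM) and the lowest value for 33 of 35 members. MI replicate 4 had the least Myl7 (2.76 CPM) and the highest value for 30. The shams did not follow that order. Myl7 was at 126.9 CPM in the first 12-week sham, 92.2 in the first 20-week, 13.4 in the second 20-week and 15.1 in the second 12-week. In that order they had the lowest value for 14, 0, 4 and 17 members and the highest for 1, 27, 2 and 5. The part of cell composition was not tested. The members summed to 31.5 ± 0.58 per 100 CPM of cardiomyocyte markers after MI (SD, n = 4).

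The 4 members with the smallest p after MI were Aldh6a1, Bckdhb, Suclg2 and Ppm1k, 3 of them branched-chain genes, and each was also called when MI replicate 1, MI replicate 2 or the first 20-week sham was left out. Aldh6a1 was at 199, 167, 192 and 207 CPM in MI hearts and 279, 362, 292 and 282 in shams (-0.67 ± 0.11, edgeR adjusted p = 0.0015). Bckdhb was at 31.7, 24.6, 36.98 and 34.996 against 52.04, 57.1, 49.9 and 53.2 (-0.72 ± 0.12, adjusted p = 0.0018), and Ppm1k at 66.03, 48.1, 67.9 and 70.7 against 95.6, 139, 96.98 and 127 (-0.85 ± 0.14, adjusted p = 0.00211). For these genes every MI library lay below every sham. Suclg2 was at 106, 97.9, 115 and 116 CPM against 139.5, 174, 156 and 155 (-0.52 ± 0.09, adjusted p = 0.00205), again without overlap.

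The comparisons of I/R and MI above share the same 4 shams, so the 2 were also set against each other directly. MI hearts were higher than I/R hearts for 9 of 35 members and lower for 0 by edgeR, and for 11 and 0 by DESeq2, where 8.84% of the 13611 genes were higher and 11.2% lower. The 9 were Cs, Ogdh, Dlst, Dld and Mdh2 of the TCA cycle, Dlat and Pdhx of pyruvate dehydrogenase, Hibch and Pcca, so that 7 of 18 TCA and pyruvate dehydrogenase genes (median 0.25) and 2 of 17 branched-chain genes (median 0.07) were called. Pdhx differed most: 84.95, 94.2, 109.6 and 102 CPM after I/R, 148, 149, 156 and 159 after MI and 163, 171, 166 and 112 in shams (0.65 ± 0.12, adjusted p = 0.0014). Hibch was at 59.8, 57.7, 68.4 and 57.1 after I/R and 86.6, 86.9, 86.3 and 89.2 after MI (0.52 ± 0.10, adjusted p = 0.00189), and Dlat differed by 0.44 ± 0.11 (adjusted p = 0.00819). The count was 4 without I/R replicate 2, MI replicate 3 or MI replicate 4, 5 without I/R replicate 4 and 13 without MI replicate 2, and scaling to library size gave 4 higher and 2 lower. Over all genes 1203 were higher and 1527 lower with all libraries. In either direction, 2247, 2227 and 2137 were called without I/R replicate 2, MI replicate 3 and MI replicate 4. Without I/R replicate 4 there were 2273, without MI replicate 2 there were 2367, and with scaling to library size 2925. Of the markers, 4 of 8 for cardiomyocytes (median 0.37) and 3 of 3 tested for adipocytes were higher in MI than in I/R hearts and 7 of 7 for macrophages were lower (median -0.97). For atrial cardiomyocytes 0 of 3 markers were called, though all 3 had an unadjusted p under 0.05 in edgeR. The part of these markers in the members' differences was not tested. The surgery, the time after it and the labelled age differ together between these groups and cannot be told apart.

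**Figure D4:**
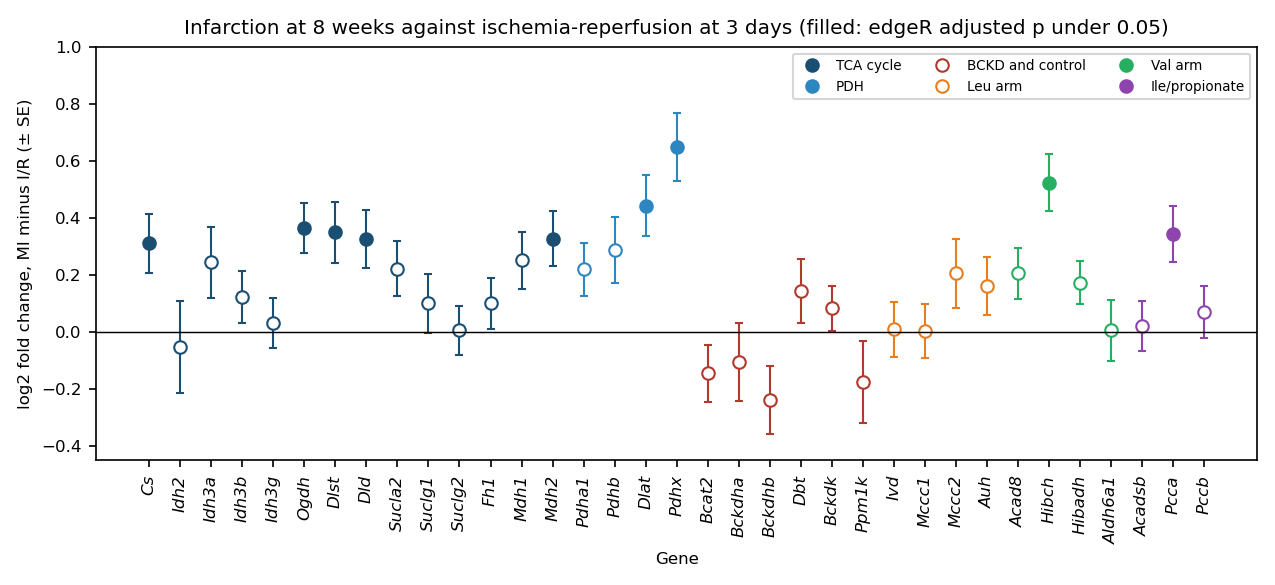
Log2 difference of MI minus I/R for each of the 35 genes, with standard errors, where filled points passed an adjusted p of 0.05 in edgeR. The 9 filled points lie above 0, from 0.31 for Cs to 0.65 for Pdhx, and 7 of them are TCA or pyruvate dehydrogenase genes.

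The difference of homozygous from wild type at 8 weeks was more negative than that of MI from sham for 26 of 35 members by edgeR, where 17.7% of genes were so, with a median difference of -0.64 against 0.03. Hibch had the smallest p (-0.97 ± 0.16, adjusted p = 9.16e-06). It was at 85.2, 87.7 and 87.97 CPM in wild type and 60.3, 33.5, 41.3 and 37.2 in homozygous hearts at 8 weeks, and the MI libraries lay within the range of the shams (89.9, 101, 97.8 and 71.3 CPM). Dlst (-0.93 ± 0.16), Sucla2 (-0.89 ± 0.17) and Fh1 (-0.73 ± 0.14) followed. Age and surgery differ between the sets.

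Of 46 other genes of these pathways 45 were tested. In homozygous hearts 31 were lower and 4 higher at 5 weeks (median -0.44), and 29 lower and 5 higher at 8 weeks (median -0.63), while 29 were lower and 2 higher after I/R and 14 lower and 1 higher after MI. Of all genes 21.4% were lower and 22.3% higher at 5 weeks, 29% and 30.8% at 8 weeks, 14.1% and 16.9% after I/R, and 4.77% and 6.62% after MI. All 8 other TCA genes tested fell at both ages, among them the succinate dehydrogenase subunit Sdha (-0.75 and -1.25), Aco1 (-0.49 at 8 weeks) and Ogdhl, the Ogdh paralog (-1.63 and -1.97). Ogdhl was at 252, 304 and 318 CPM in wild type and 131, 58.2, 65.9 and 46.8 in homozygous hearts at 8 weeks, a deeper fall than that of any of the 35.

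Of the 12 genes that control or supply pyruvate dehydrogenase, 8 were lower and 1 was higher at both ages. Of the 4 kinases, which switch the complex off, Pdk2 fell (-0.62 and -1.15 at 5 and 8 weeks) and Pdk3 rose from a low level, 2.44, 2.59 and 3.22 CPM in wild type against 9.07, 12.3, 13.1 and 8.91 in homozygous hearts at 8 weeks (1.96 ± 0.21, edgeR adjusted p = 9.02e-06). Pdk4 was lower at 5 weeks (-1.08 ± 0.18, adjusted p = 7.66e-05, but 0.0784 with all libraries in 1 fit) and was not called at 8 weeks (0.07 ± 0.44), where wild type hearts held 483, 449.7 and 859 CPM and homozygous hearts 707, 1127, 357 and 358. The phosphatase Pdp2, which switches the complex on, was at 22.3, 21.6 and 19.8 in wild type and 5.24, 2.35, 2.91 and 2.23 in homozygous hearts at 8 weeks (-2.77 ± 0.24, adjusted p = 1.9e-06). The pyruvate carrier subunits Mpc1 and Mpc2 fell by 0.31 ± 0.09 and 1.03 ± 0.13.

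Of the other branched-chain genes, the cytosolic transaminase Bcat1 went opposite to the set. It was at 1.42, 2.398 and 1.58 CPM in wild type and 5.72, 8.16, 7.35 and 5.57 in homozygous hearts at 8 weeks (1.87 ± 0.23, edgeR adjusted p = 2.23e-05), and was higher after I/R (2.96 ± 0.36, adjusted p = 3e-05) and not called after MI (0.31 ± 0.42, adjusted p = 0.693). Macrophage markers summed to a mean of 735.9 CPM after I/R, 361.9 after MI and 254.9 in shams, and fibroblast markers to 3482, 2071 and 1233. In homozygous hearts at 8 weeks macrophage markers summed to 1351 CPM, above the I/R mean. Bcat1 was at 5.57 to 8.16 CPM in those hearts and at 6.30 to 12.1 after I/R. The part of these cell types in the level of Bcat1 was not tested. Klf15, a transcription factor known to drive branched-chain genes, was lower at 5 weeks (-0.85 ± 0.11, adjusted p = 4.24e-06) and higher at 8 weeks (0.79 ± 0.26, adjusted p = 0.0195). At 8 weeks wild type hearts held 48.5, 46.1 and 39.6 CPM and homozygous hearts 92.2, 94.2, 93.97 and 34.7, so the groups overlapped through 1 homozygous library. The Klf15 call at 8 weeks was lost without wild type replicate 2 (adjusted p = 0.051) or 3 (0.0816) or homozygous replicate 2 (0.0523). The carrier Slc25a44, which brings branched-chain amino acids into mitochondria, had a log2 value of 0.02 at 8 weeks and was not called at any age.

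The methylmalonyl-CoA genes after propionyl-CoA carboxylase fell, Mcee by 1.17 ± 0.12 and Mmut by 1.18 ± 0.13 at 8 weeks. In the list of anaplerosis and shuttles, 5 fell and 2 rose of 14 at 8 weeks, the falls a share near that of all genes and the rises a smaller one. Slc25a11, the oxoglutarate carrier, and Got2, the mitochondrial aspartate aminotransferase, had the smallest p-values among the falls (-0.93 and -0.76), and the citrate carrier Slc25a1 (1.01) and Me2 (0.48) were the 2 that rose.

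**Figure D5:**
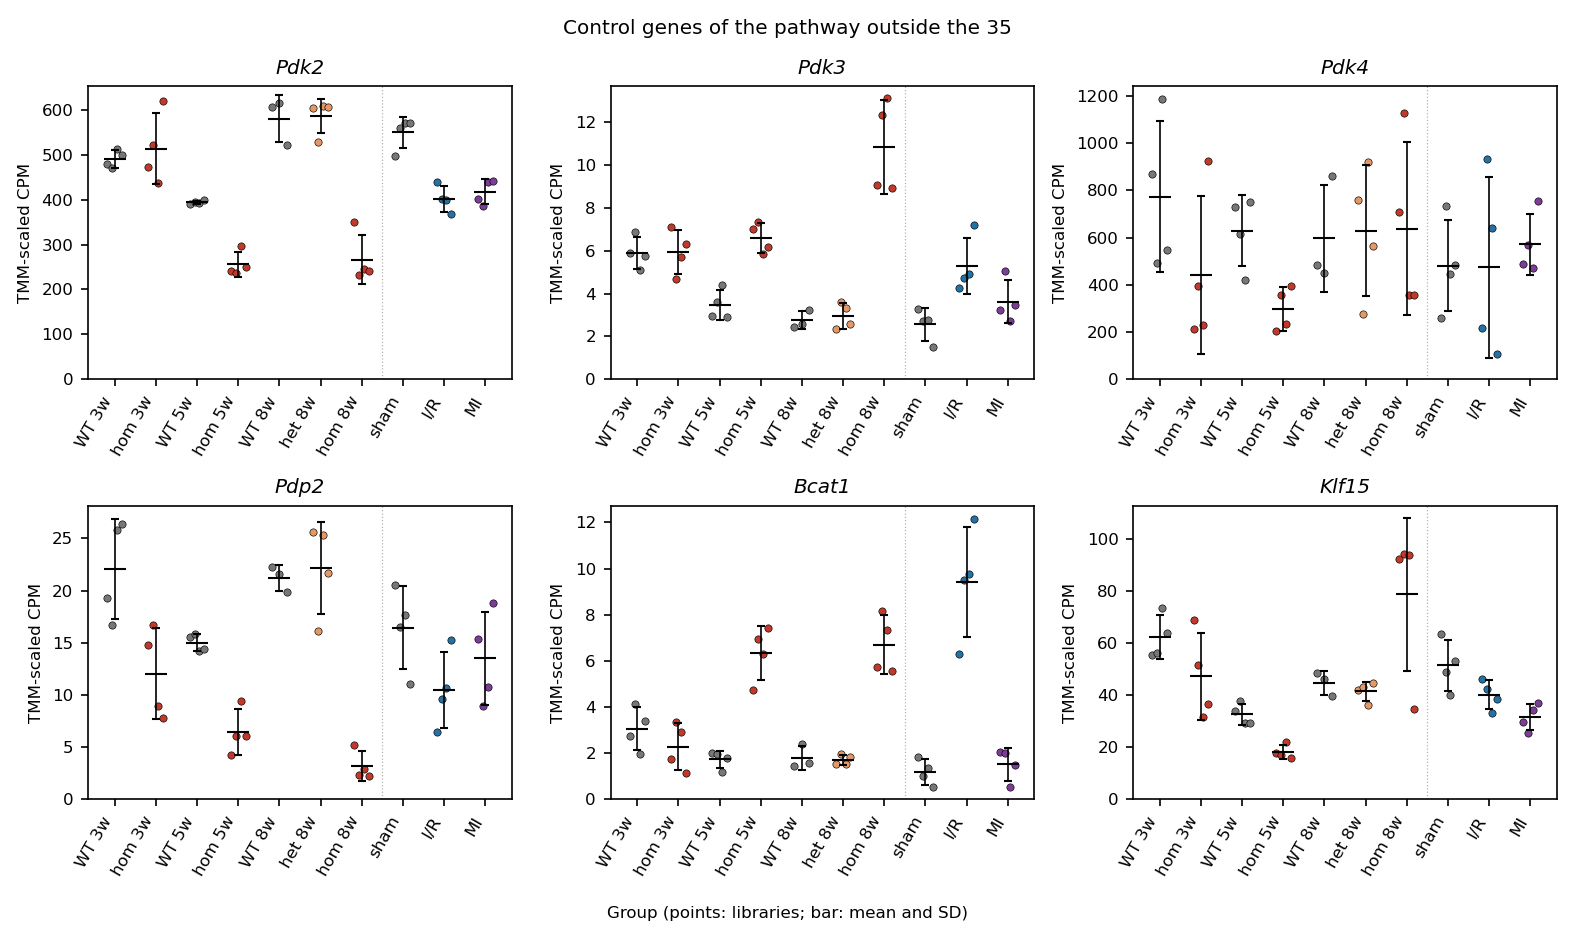
CPM per library of Pdk2, Pdk3, Pdk4, Pdp2, Bcat1 and Klf15 in each group, with the group mean and SD. Pdk3 and Bcat1 stand above all wild type libraries in the homozygous hearts at 8 weeks, Pdp2 stands below them, and Pdk4 overlaps.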

How the data were processed

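RNA was extracted from left ventricle with Trizol and made into libraries with a TruSeq mRNA stranded kit, per the labels' protocols. The authors aligned the reads to mm10 with STAR 2.7.3a and counted them per gene with featureCounts of Subread 2.0.0, per the submitters' processing notes. Annotation release and strand setting: not given in the sources used here. The deposited values are raw counts for 38293 genes in 39 libraries of 9.4 M to 19.3 M, and precision is limited by this depth and by 3 or 4 libraries per group. Gene names and positions came from GENCODE vM21, which named 36429 of the genes, and the unnamed ones held 0.133% of counts. No 2 replicates were identical (53 pairs, chi-square per gene of 4.03 to 97.4), so each library was used as 1 sample.

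Groups were taken from the labels. Each age of the mutant set and the surgery set were fitted separately in R 4.3.3, on all genes that passed filterByExpr (minimum count 10), with TMM scaling and the quasi-likelihood F test of edgeR 4.0.16. P-values were Benjamini-Hochberg adjusted over all genes tested, with a threshold of 0.05. Differences between 2 effects, and between wild type ages, came from 1 fit of all 39 libraries. Standard errors were obtained as the size of the log2 value over the root of F. CPM were computed from the counts with TMM factors over all libraries, and levels per kilobase used the exon length of GENCODE vM21. The procedure was tested on simulated data.

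The members and lists were chosen with earlier results of these data known. Sample values are given for members picked by role (Cs, Idh2, Ogdh, Sucla2, Suclg2, Pdha1, Bcat2, Bckdha, Bckdhb, Bckdk, Ppm1k, Aldh6a1 and Pcca), for the 3 largest called changes at 5 and 8 weeks, and for up to 4 called members with the smallest p after I/R, after MI and in each difference of effects. Of other pathway genes, 8 were picked by role and, per list, the 2 with the smallest p at 8 weeks and any called against most of the list. Further genes were named after their values were seen.

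Alternatives were DESeq2 1.42.0, RLE factors, library size scaling, no filter, 1 fit of all libraries, shams matched by age, a replicate block, and leaving out each library. Removal of mitochondrially encoded genes and scaling factors without the pathway genes were added after seeing the data.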

Additional observations from a re-analysis of the deposited data

Results flagged for a closer look

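Among 315 values of a gene in a group of 4, 28 in 20 genes had 1 library far from the other 3, where chance gives about 1 in 20. In homozygous hearts at 8 weeks replicate 1 was the high library for Idh3g (440 CPM), Suclg2 (81.9), Pdhx (144), Ivd (338), Auh (59.9), Pcca (67.3) and Pccb (105), and replicate 4 for Bckdk (98.5). In homozygous hearts at 5 weeks replicate 3 was high for Dld (352) and Dlat (344), and replicate 4 for Hibch (61.9). In homozygous hearts at 3 weeks replicate 4 was high for Bckdha (276) and replicate 3 low for Aldh6a1 (101). Heterozygous replicate 2 was low for Dlst (706) and Bckdha (325) and high for Bcat2 (177). In wild type hearts at 3 weeks Sucla2 was low in replicate 2 (607), Suclg1 high in replicate 1 (544) and Suclg2 high in replicate 3 (91.7), and at 5 weeks replicate 1 was high for Pdha1 (1300) and Pdhx (174). After I/R replicate 1 was high for Bckdha (369) and Ivd (386), and after MI replicate 2 was low for Ivd (300). Among the shams the second 12-week heart was low for Pdhb (457) and Pdhx (112), the second 20-week heart high for Acad8 (59) and the first 20-week heart high for Aldh6a1 (362).

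Effects also differed between groups by edgeR. From 3 to 5 weeks the genotype difference became more negative for 23 members, among them Idh2 (-1.06), Bckdha (-0.86), Ogdh (-0.64) and Auh (-0.59). From 5 to 8 weeks it did so for 12, among them Mccc1 (-0.76), Suclg2 (-0.60), Bcat2 (-1.03) and Fh1 (-0.55). Compared with MI, the difference at 8 weeks was more negative for 26, among them Hibch (-0.97), Dlst (-0.93), Sucla2 (-0.89) and Fh1 (-0.73).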

How the results depend on the processing

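Leaving out 1 library gave 33 to 34 members lower at 5 weeks, 35 at 8 weeks and 33 to 34 against heterozygous hearts, and 32 to 34 after I/R. At 3 weeks DESeq2 called 1 member lower, and 112 of 21752 genes in either direction, where edgeR called 0. Scaling to library size called 31 members lower and 1, Bcat2, higher at 5 weeks, where it moved the members' median to -0.39, 2 lower and 4 higher for MI against I/R (0 and 9 with TMM), 22 with a more negative genotype difference at 8 than at 5 weeks (12 with TMM) and 1 lower in wild type hearts at 8 against 3 weeks. It also turned Pdk1 and Glud1 at 5 weeks, from -0.17 to 0.0382 and 0.0365, and called 14 members lower after MI. Leaving out 1 library gave 9 to 22 members lower after MI and 4 to 13 higher in MI than I/R. For a more negative genotype difference it gave 18 to 30 for 5 against 3 weeks and 6 to 24 for 8 against 5 weeks. The cause was not tested. Age-matched shams, 2 per comparison, gave 30 lower after I/R and 17 after MI. Same-numbered replicates deviated together with r from -0.0888 to 0.202 over 22 pairs, 1 of them over 0.1, and 7 correlated best with their own number, so the numbers were not taken to pair samples. With a replicate block 1 member, Bcat2, was higher at 5 weeks (0.17, edgeR adjusted p = 0.0377), 17 were lower after MI and 7 were higher in MI than I/R. Depth limits the precision of Pdk3 and Bcat1, which stand at a few CPM in wild type hearts.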
